A study of Arabidopsis thaliana with 12 samples.

Results

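The 46 genes described here are nuclear genes of Arabidopsis thaliana whose products work in or at the photosynthetic membranes of the chloroplast. They were chosen by function: 4 genes of the photosystem I antenna (LHCI), 8 of the trimeric photosystem II antenna (LHCII), 5 of the minor antenna and PSBS, 12 of the photosystem I core, 9 of photosystem II, 6 electron carriers and 2 subunits of ATP synthase. All 46 were among the 24228 genes of the deposited tables, and all 46 passed the filter on low counts. RNA had been sequenced from rosette leaves of wild type Col-0 and of a PAD4 knockout (pad4), each given 2'cADPR or water, with 3 libraries in each of the 4 groups. 2'cADPR is a cyclic ADP-ribose isomer that TIR-domain immune proteins make, and PAD4 works with EDS1 and the helper receptor ADR1 in immune signalling; the study asked how far responses to 2'cADPR depend on that module. Which pad4 allele was used, how much 2'cADPR was given, how long before sampling and how old the plants were was not given in the sources used here. Whether libraries of a group came from separate plants is not stated in the labels. The p-values therefore measure only how far these libraries vary, which may be technical.

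Light-harvesting proteins bind chlorophyll and pass excitation energy to the reaction centres of photosystems I and II. Photosystem II splits water with the help of an oxygen-evolving complex on the lumenal side, and electrons then move through the cytochrome b6f complex and plastocyanin to photosystem I, ferredoxin and finally NADPH. The chlorophyll-binding reaction centre proteins are encoded in the chloroplast, whereas the antenna and many small subunits are encoded in the nucleus, often by several near-identical copies. Nuclear photosynthesis transcripts are among the most abundant of a leaf and are known to respond to light, the circadian clock, sugar, the state of the chloroplast and pathogens.

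The 5 LHCB1 copies, which encode the most abundant LHCII protein, show how alike copies can be. LHCB1.2 (AT1G29910), LHCB1.1 (AT1G29920) and LHCB1.3 (AT1G29930) lie beside each other on chromosome 1, and LHCB1.5 (AT2G34420) and LHCB1.4 (AT2G34430) lie head to head on chromosome 2 with 1038 bases between their annotated starts. Coding sequences within the chromosome 1 cluster were 95.6% to 96.4% identical, the chromosome 2 pair were 91.4% identical, and copies on different chromosomes were 86.8% to 90.4% identical. The longest identical run was 119 bases between LHCB1.1 and LHCB1.3, 122 bases between LHCB1.4 and LHCB1.5, and 50 bases between copies on different chromosomes. A stretch of 60 coding bases of each copy, from RefSeq on TAIR10.1, is shown. It spans bases 226 to 285 in the chromosome 1 copies, 223 to 282 in LHCB1.4 and 220 to 279 in LHCB1.5. The stretch was picked because LHCB1.4 differs most from LHCB1.3 there, so it overstates how far their reads could be told apart in general. Over the whole coding alignment, LHCB1.3 and LHCB1.4 differed at 106 positions, gaps included. Capitals mark bases that differ from LHCB1.3.
LHCB1.3: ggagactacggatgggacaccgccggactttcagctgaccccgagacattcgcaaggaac
LHCB1.1: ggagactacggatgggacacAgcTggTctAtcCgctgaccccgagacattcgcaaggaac
LHCB1.2: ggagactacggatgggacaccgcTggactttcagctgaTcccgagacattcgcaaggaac
LHCB1.4: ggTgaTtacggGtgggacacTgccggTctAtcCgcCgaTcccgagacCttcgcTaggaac
LHCB1.5: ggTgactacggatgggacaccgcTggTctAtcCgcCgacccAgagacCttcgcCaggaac
In this stretch LHCB1.2 differed from LHCB1.3 at 2 bases, LHCB1.1 at 5, LHCB1.5 at 9 and LHCB1.4 at 11. The counting of reads that match several copies was not given in the sources used here. Values of single LHCB1 copies, above all within the chromosome 1 cluster, are therefore uncertain.

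Libraries held 35.8 to 44.4 M counts (1 M being 1000000). PAD4 (AT3G52430) stood at 68.6 ± 5.78 counts per 1000000 (CPM; SD, n = 3) in wild type after water and 552 ± 36 after 2'cADPR, against 3.86 ± 1.43 and 3.45 ± 1.2 in pad4; the low level in all 6 pad4 libraries matches their labels. The 46 genes took 9.91% ± 0.870 of all counts in wild type after water (SD, n = 3), 6.14% ± 0.451 in wild type after 2'cADPR, 10.2% ± 0.343 in pad4 after water and 9.98% ± 0.299 in pad4 after 2'cADPR. In the wild type water group, library 1 was the lowest of the 3 for all 46 genes. Without that library, 43 of the 46 genes were called lower in wild type after 2'cADPR instead of 41. Of 6 genes that mark flower, seed or root, 4 had at most 10 counts in all 12 libraries, and the summed level of all 6 did not exceed 6.88 CPM in any library. The mesophyll markers RBCS1A, CA1 and RCA summed to 19054 to 23106 CPM in the wild type water libraries.

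In wild type leaves, photosystem and antenna transcripts were broadly lower after 2'cADPR than after water. Of the 46 genes, 41 were called lower and 1 higher by edgeR's quasi-likelihood F-test (p-values adjusted by Benjamini-Hochberg across 19652 tested genes, threshold 0.05). The background was high: 69.2% of all tested genes were called in this comparison, 34.6% lower and 34.6% higher, or 6799 and 6809 genes. When libraries were scaled by 7 reference genes, the split over all genes was 8095 lower and 5326 higher. The median log2 change was -0.76 over the 46 genes, within a range of -1.54 to 0.69, and -0.01 over all tested genes. For 12 genes the level was at least 2-fold lower. All 41 genes called lower were below every one of the 9 other libraries in all 3 wild type 2'cADPR libraries, and LHCB1.4 was above all 9. Between the wild type groups alone, 35.8% of all tested genes were separated downward and 36% upward. The share of all genes separated from all 9 other libraries was not counted. In bulk tissue, fewer cells of a type and less RNA per cell cannot be told apart.

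**Figure D1:**
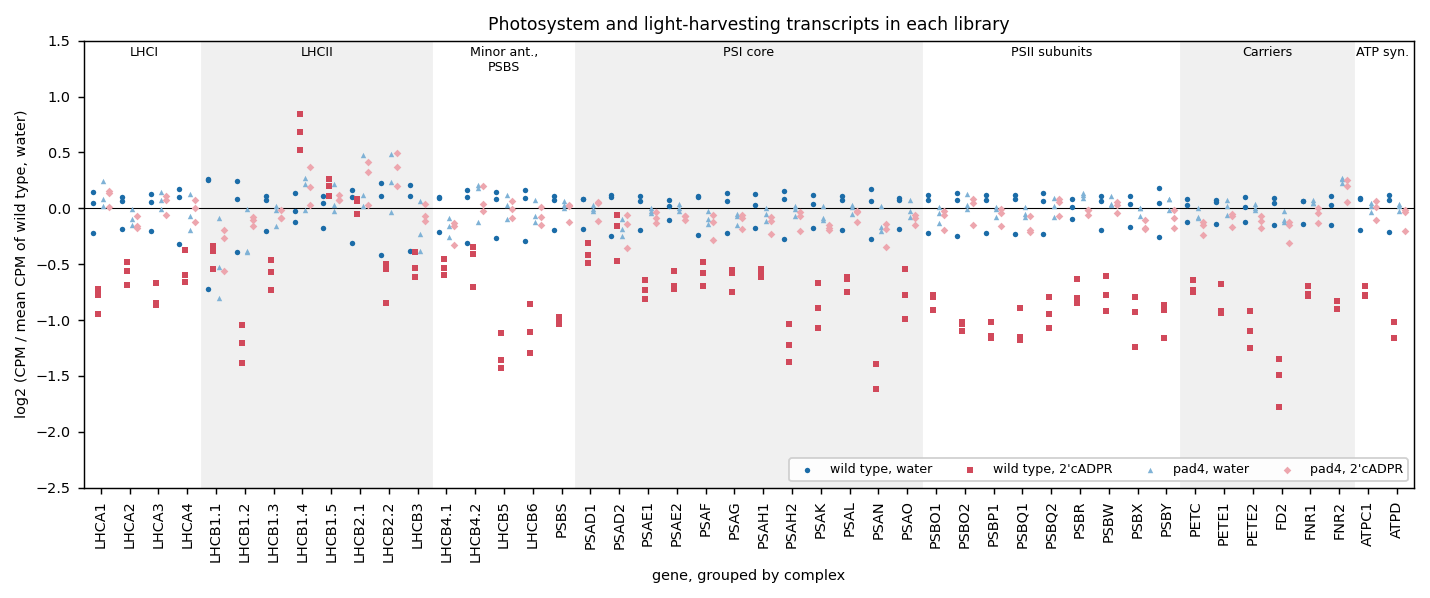
Each point is 1 library: the log2 of a gene's CPM over its mean in wild type after water, for the 46 genes grouped by complex (x axis) and the 4 groups of 3 libraries. The wild type 2'cADPR libraries (squares) lie below the other groups for 41 genes and above them for LHCB1.4.

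The chlorophyll a/b proteins of the photosystem I antenna were all lower, by similar amounts. LHCA1 was measured at 1535, 1858 and 1984 CPM in the 3 wild type water libraries and at 930, 1050 and 1089 CPM after 2'cADPR, so the groups did not overlap. Its log2 change was -0.81 ± 0.10 (SE; edgeR adjusted p = 3.84e-06). LHCA3 fell from 2682, 3205 and 3357 CPM to 1710, 1695 and 1936 CPM, a log2 change of -0.79 ± 0.10 (edgeR adjusted p = 2.74e-06). LHCA2 and LHCA4 had smaller changes, -0.57 ± 0.09 and -0.54 ± 0.13 on the log2 scale (edgeR adjusted p = 4.64e-05 and 0.00141). The summed FPKM of the 4 genes after 2'cADPR was 63.5% of its level after water.

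The LHCII genes were the only one of the 7 complexes with a gene called higher. Of 8 genes, 4 were called lower, 1 higher and 3 were not called, with a median log2 change of -0.46. LHCB1.2 was the gene of this complex that fell most, from 1261, 1749 and 1955 CPM to 718, 635 and 803 CPM, a log2 change of -1.2 ± 0.15 (edgeR adjusted p = 2.68e-06). LHCB1.3, the most abundant of all 46 genes at 10242 ± 875 FPKM in wild type after water (SD, n = 3), was measured at 11180, 13550 and 13893 CPM after water and at 7764, 8677 and 9359 CPM after 2'cADPR. Its log2 change was -0.58 ± 0.10 (edgeR adjusted p = 0.000119), and every 2'cADPR library lay below every water library.

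LHCB1.4 went the other way. It was measured at 1018, 1094 and 1221 CPM after water and at 1597, 1781 and 1995 CPM after 2'cADPR, with no overlap, a log2 change of 0.69 ± 0.11 (edgeR adjusted p = 5.63e-05). Scaled by the reference genes the change was 0.52 and was still called. Its head-to-head neighbour LHCB1.5 was at 3830, 4491 and 4676 CPM after water and 4669, 4985 and 5198 CPM after 2'cADPR, so the groups overlapped, and its log2 change of 0.19 ± 0.09 was not called (edgeR adjusted p = 0.0785). LHCB1.5 passed the threshold with DESeq2 and with RLE factors in edgeR, at 0.24 in both. It was also called higher without wild type 2'cADPR library 1 and without water library 3. LHCB1.1 was at 218, 431 and 429 CPM after water and 284, 247 and 276 CPM after 2'cADPR, so its groups overlapped too. Its log2 change of -0.42 ± 0.22 was not called (edgeR adjusted p = 0.0988). Without water library 1, and with reference gene scaling, LHCB1.1 was called lower.

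**Figure D2:**
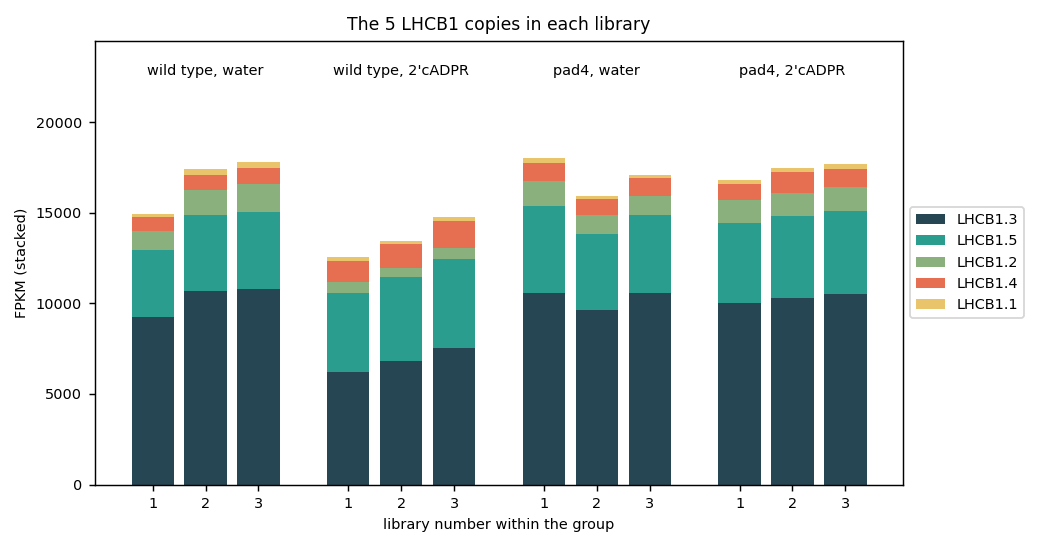
Stacked bars give the deposited FPKM of the 5 LHCB1 copies in each of the 12 libraries, by group. LHCB1.3 is the largest part in every library, and in the 3 wild type 2'cADPR libraries LHCB1.4 and LHCB1.5 together make up 43.4% to 44.4% of the bar.

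The makeup of LHCB1 transcripts differed between the treatments in wild type, with no overlap for these 3 copies. The share of LHCB1.3 in the summed FPKM of the 5 copies was 61.3% ± 0.571 after water and 50.3% ± 0.865 after 2'cADPR (SD, n = 3). The share of LHCB1.4 was 4.97% ± 0.307 and 9.81% ± 0.326, and that of LHCB1.5 was 24.3% ± 0.506 and 34.2% ± 0.853. LHCB1.4 and LHCB1.5 together made up 28.7% to 30.2% of LHCB1 in the water libraries and 43.4% to 44.4% in the 2'cADPR libraries. In pad4 this share was 31.7% ± 0.640 after water and 31.9% ± 0.594 after 2'cADPR. The counts of all 5 copies were also summed before the fit. That sum does not depend on how reads were divided between copies, but would depend on any left out for matching several. Summed, LHCB1 was lower by 0.32 ± 0.10 on the log2 scale (edgeR adjusted p = 0.0141).

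LHCB2 encodes the other main trimer protein, the one whose phosphorylation accompanies state transitions. LHCB2.2 was lower, with a log2 change of -0.62 ± 0.16 (edgeR adjusted p = 0.00259), whereas LHCB2.1 was measured at 234, 310 and 325 CPM after water and 280, 304 and 306 CPM after 2'cADPR. The LHCB2.1 groups overlapped, and its log2 change of 0.03 ± 0.14 was not called (edgeR adjusted p = 0.836); without water library 1 it was -0.08, and scaled by the reference genes -0.13. The annotated coding sequences of this pair were 77.7% identical, with 1 identical run of 137 bases. Summed, LHCB2 was not called, at -0.21 ± 0.14 (edgeR adjusted p = 0.197). LHCB3, the third trimer protein, was lower by 0.51 ± 0.14 on the log2 scale (edgeR adjusted p = 0.00404).

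The minor antenna proteins CP29, CP26 and CP24, which link the trimers to the photosystem II core, and PSBS, the sensor of lumen acidity for heat dissipation, were all called lower. LHCB5, which encodes CP26, was at 2778, 3543 and 3685 CPM after water and 1305, 1239 and 1543 CPM after 2'cADPR, a log2 change of -1.29 ± 0.11 (edgeR adjusted p = 8.55e-08). LHCB6, for CP24, was at 1577, 2058 and 2159 CPM and then at 896, 786 and 1064 CPM, a log2 change of -1.08 ± 0.12 (edgeR adjusted p = 1.68e-06). The highest 2'cADPR library lay well under the lowest water library for both genes. PSBS had a log2 change of -1.0 ± 0.08, with 2'cADPR libraries at 569, 583 and 591 CPM against 1014, 1224 and 1253 CPM after water (edgeR adjusted p = 4.67e-08). The CP29 genes LHCB4.1 and LHCB4.2 had smaller changes of -0.53 ± 0.10 and -0.48 ± 0.13, both called (edgeR adjusted p = 0.000155 and 0.00407). Some members overlap other genes, and the mean counts of the overlapping gene were compared with the member's own. Where several genes overlap a member, only the one with the most counts was used. Its counts came to 9.13% of the member's own for PSAE2, 6.52% for PSAN and 6.30% for PSAD2. They came to 6.08% for LHCB4.2 and 4.62% for PSAE1, and to at most 1.89% for the others.

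In the photosystem I core, 11 of 12 genes were called lower and none higher, with a median log2 change of -0.66. PSAN, a lumenal subunit near the plastocyanin docking site, had the largest fall of all 46 genes. It was at 1148, 1461 and 1570 CPM after water and at 454, 455 and 532 CPM after 2'cADPR, which is 34.5% of the water mean and a log2 change of -1.54 ± 0.11 (edgeR adjusted p = 1.36e-08). PSAH2, one of 2 genes for the subunit at which LHCII docks, fell from 816, 1050 and 1101 CPM to 382, 422 and 484 CPM, a log2 change of -1.2 ± 0.11 (edgeR adjusted p = 1.27e-07). Its copy PSAH1 changed by -0.58 ± 0.08 (edgeR adjusted p = 1.35e-05).

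The stromal subunits that dock ferredoxin were at the mild end or in the middle of the photosystem I range. PSAD2 was not called at -0.22 ± 0.12 (edgeR adjusted p = 0.105), and PSAD1 was lower by 0.41 ± 0.09; PSAE1 and PSAE2 were lower by 0.73 ± 0.08 and 0.66 ± 0.07. PSAD2 was called lower without water library 1, without 2'cADPR library 2 and with reference gene scaling. PSAF, which faces plastocyanin, PSAG and PSAK beside the antenna, PSAL, which works with PSAH and PSAO in LHCII docking, and PSAO itself were all called lower, between -0.58 for PSAF and -0.87 for PSAK.

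All 9 photosystem II genes were called lower, within a narrow range of -0.76 to -1.11 and a median of -0.97. PSBP1, an extrinsic protein that stabilises the oxygen-evolving complex, was at 3307, 4082 and 4208 CPM after water and 1727, 1755 and 1905 CPM after 2'cADPR, a log2 change of -1.11 ± 0.09 (edgeR adjusted p = 5.96e-08). PSBQ1, another extrinsic protein, was at 1381, 1714 and 1755 CPM and then at 730, 716 and 870 CPM, a log2 change of -1.07 ± 0.10 (edgeR adjusted p = 1.85e-07). Neither gene's groups overlapped. The manganese-stabilising proteins PSBO1 and PSBO2 changed by -0.82 ± 0.09 and -1.05 ± 0.10, and PSBQ2 by -0.93 ± 0.10. The small subunits PSBR, PSBW, PSBX and PSBY lay between -0.76 and -0.98. PSBR was the second most abundant of the 46 genes, at 5471 ± 160 FPKM after water and 3236 ± 279 FPKM after 2'cADPR (SD, n = 3).

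All 6 electron carrier genes and both ATP synthase genes were called lower. FD2, the main leaf ferredoxin, had the smallest adjusted p of the 46 genes. It was at 2095, 2413 and 2484 CPM after water and 826, 678 and 913 CPM after 2'cADPR, which is 34.6% of the water mean and a log2 change of -1.53 ± 0.11 (edgeR adjusted p = 6.74e-09). PETE2, the main plastocyanin gene, was at 3358, 3701 and 3929 CPM and then at 1711, 1544 and 1942 CPM, a log2 change of -1.08 ± 0.09 (edgeR adjusted p = 5.50e-08). PETE1, the minor plastocyanin gene, changed by -0.84 ± 0.08. PETC, the Rieske protein of cytochrome b6f, changed by -0.71 ± 0.07, and the ferredoxin-NADP reductases FNR1 and FNR2 by -0.75 ± 0.07 and -0.88 ± 0.08.

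For ATP synthase, ATPD, the delta subunit, was at 941, 1147 and 1184 CPM after water and 489, 488 and 540 CPM after 2'cADPR, a log2 change of -1.11 ± 0.09 (edgeR adjusted p = 3.95e-08). ATPC1, the redox-regulated gamma subunit, was at 1331, 1626 and 1619 CPM and then at 883, 943 and 893 CPM, a log2 change of -0.75 ± 0.09 (edgeR adjusted p = 1.39e-06). The groups did not overlap for either gene.

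Summed by complex, the falls differed in size. The FPKM sum of the LHCII genes after 2'cADPR was 80.7% of its level after water in wild type. The sums were 63.5% for LHCI, 61.1% for the photosystem I core, 54.3% for the minor antenna with PSBS, 53.9% for photosystem II, 53.1% for ATP synthase and 48.3% for the electron carriers. Over all 46 genes the sum was 87369 ± 7483 FPKM after water and 54001 ± 4087 FPKM after 2'cADPR (SD, n = 3), or 61.8%. Such sums are set by the most abundant members, and no test was made between complexes.

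In pad4, none of the 46 genes was called after 2'cADPR, and none had an unadjusted p under 0.05 by edgeR. DESeq2 also called none. The background in pad4 was 0.00509% of tested genes called, which is 1 gene, with 992 genes at an unadjusted p under 0.05. The median log2 change of the 46 genes was -0.05, within a range of -0.15 to 0.14, with a median SE of 0.10. FD2 was at 2291, 2166 and 2139 CPM after water and 2147, 1878 and 2101 CPM after 2'cADPR in pad4. PSAN was at 1415, 1244 and 1213 CPM and then at 1225, 1095 and 1265 CPM, and LHCB1.4 at 1338, 1098 and 1293 CPM and then at 1133, 1432 and 1270 CPM. The groups overlapped for all 3 of these genes.

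In pad4, 37 of the 46 log2 changes were below zero, against 51.2% of all tested genes. The median of the 46 moved to -0.0073 without pad4 2'cADPR library 2, to -0.018 without pad4 water library 1, and to -0.078 without pad4 2'cADPR library 3 or pad4 water library 2. In 8 genes all 3 pad4 2'cADPR libraries lay below all 3 pad4 water libraries, namely PSAE2, PSAK, PSBR, PSBX, PSBY, PETC, PETE2 and FNR1; over all tested genes 7.39% were separated that way. None of the 46 was separated upward, against 5.58% of all tested genes. The largest of these changes was that of PSBR, -0.15 ± 0.08, from 4765, 4802 and 4677 CPM to 4333, 4195 and 4335 CPM (edgeR adjusted p = 0.974). Over the 46 genes, the pad4 change minus 2 SE went down to -0.35, and the change plus 2 SE went up to 0.54. For the 12 genes that were at least 2-fold lower in wild type, the lower bound went down to -0.33.

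**Figure D3:**
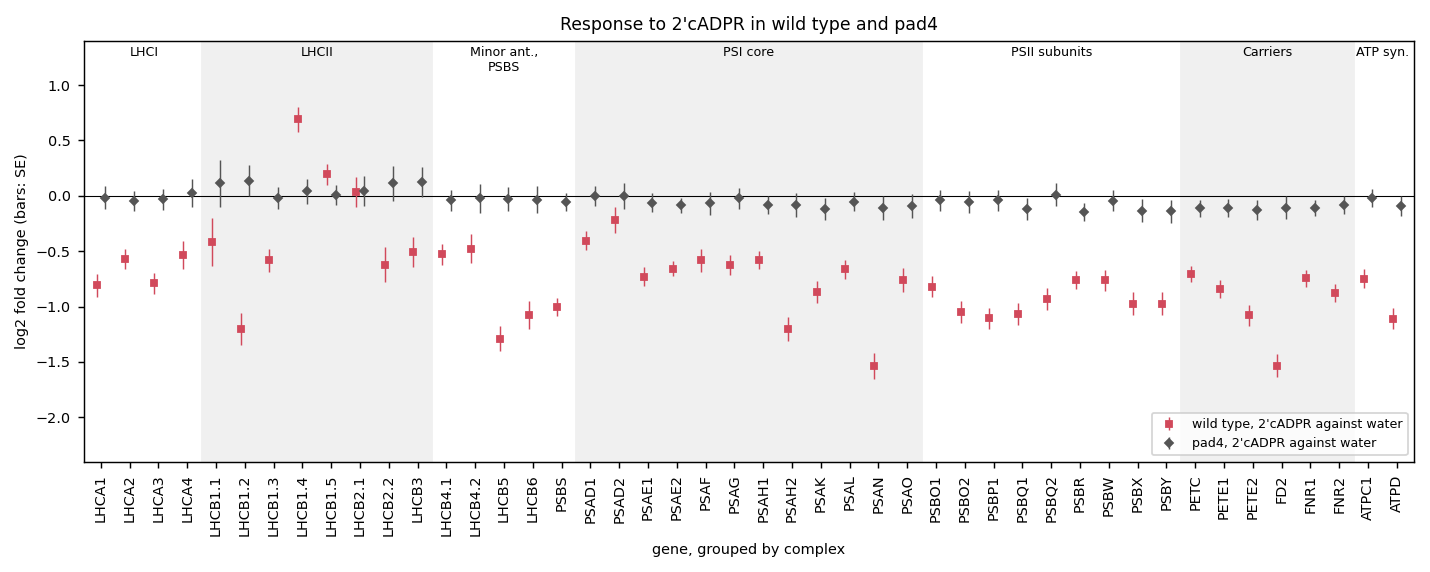
Points are log2 fold changes after 2'cADPR against water for the 46 genes, with SE bars, in wild type (squares) and pad4 (diamonds). Wild type values span -1.54 to 0.69, and pad4 values span -0.15 to 0.14.

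The difference between the 2 responses was tested directly as an interaction, pad4 response minus wild type response. It was called for 42 of the 46 genes, 41 positive and LHCB1.4 negative, against 57.6% of all tested genes, of which 29.4% were positive. The median interaction was 0.72 on the log2 scale. It was 1.43 ± 0.15 for FD2 and 1.43 ± 0.16 for PSAN (edgeR adjusted p = 1.17e-06 and 2.34e-06), 1.34 ± 0.20 for LHCB1.2 (edgeR adjusted p = 4.74e-05) and -0.65 ± 0.16 for LHCB1.4 (edgeR adjusted p = 0.00249). The 4 genes without a call were LHCB1.1, LHCB1.5, LHCB2.1 and PSAD2, the same 4 that were not called in wild type. With copies summed, the interaction was not called for LHCB1 at 0.32 ± 0.15 (edgeR adjusted p = 0.0768) or for LHCB2 at 0.29 ± 0.20 (edgeR adjusted p = 0.240). LHCB4.2 was close to the threshold at 0.45 ± 0.18 (edgeR adjusted p = 0.0442) and was not called with RLE factors, nor without wild type 2'cADPR library 1 or 2, wild type water library 2 or 3, pad4 2'cADPR library 2 or 3, or pad4 water library 2.

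The 2 genotypes had similar levels of most of these transcripts after water. FNR2 alone was called higher in pad4, at 2006, 1984 and 1938 CPM against 1492, 1697 and 1788 CPM in wild type, a log2 difference of 0.25 ± 0.08 (edgeR adjusted p = 0.0296). The other 45 genes were not called, where 29.2% of all tested genes were, and the median log2 difference of the 46 was near 0. The FNR2 call was lost without wild type water library 1 or 2 or any 1 of the 3 pad4 water libraries. Without wild type water library 1, LHCB1.1, LHCB1.2, LHCB3 and LHCB4.1 were called lower in pad4. After 2'cADPR, 41 genes were called higher in pad4 than in wild type and LHCB1.4 lower, with a median log2 difference of 0.73. Of all tested genes 74.2% were called, 37.4% higher and 36.8% lower. The LHCB1.4 difference was -0.49 ± 0.11 (edgeR adjusted p = 0.00104), and with reference gene scaling it was -0.21 and not called. This comparison shares libraries with the others.

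Many subunits are encoded by gene pairs, and within-library ratios of the pair do not depend on library scaling. In wild type the log2 ratio of PSAH1 to PSAH2 was -0.80, -0.96 and -0.93 after water and -0.07, -0.26 and -0.48 after 2'cADPR. In deposited FPKM, PSAH2 was at 1181, 1454 and 1498 after water and 534, 583 and 680 after 2'cADPR, and PSAH1 at 678, 750 and 787 and then at 509, 486 and 487. The log2 ratio of LHCB2.1 to LHCB2.2 was 0.22, 0.10 and 0.05 after water and 0.91, 0.72 and 0.69 after 2'cADPR. The log2 ratio of LHCB1.4 to the summed chromosome 1 copies was -3.73, -3.94 and -3.83 after water and -2.55, -2.52 and -2.48 after 2'cADPR. Neither treatment overlapped the other in any of the 3 ratios, and the differences were 0.62 ± 0.13, 0.65 ± 0.09 and 1.32 ± 0.06 (SE).

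Smaller shifts without overlap were seen for PETE1 to PETE2 at 0.24 ± 0.05, PSBO1 to PSBO2 at 0.22 ± 0.02, PSBQ1 to PSBQ2 at -0.13 ± 0.05 and FNR1 to FNR2 at 0.13 ± 0.05. The LHCB4, PSAD and PSAE pairs overlapped between treatments. In pad4 only PSBQ1 to PSBQ2 was without overlap, at -0.13 ± 0.06, so 7 of 10 ratios were separated in wild type and 1 of 10 in pad4. Full separation of 3 libraries from 3 has a probability of 0.1 per ratio under permutation. The share over other gene pairs was not counted. After water the pad4 and wild type groups did not overlap for 5 of 10 ratios, with FNR1 to FNR2 at -0.20 ± 0.02 and LHCB4.1 to LHCB4.2 at -0.26 ± 0.08. With 3 libraries against 3, the smallest p of the two-sided exact permutation test is 0.1, and over 30 tests the smallest Benjamini-Hochberg adjusted p was 0.231, so none could pass. Whether the ratio changes differed between genotypes was not tested.

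**Figure D4:**
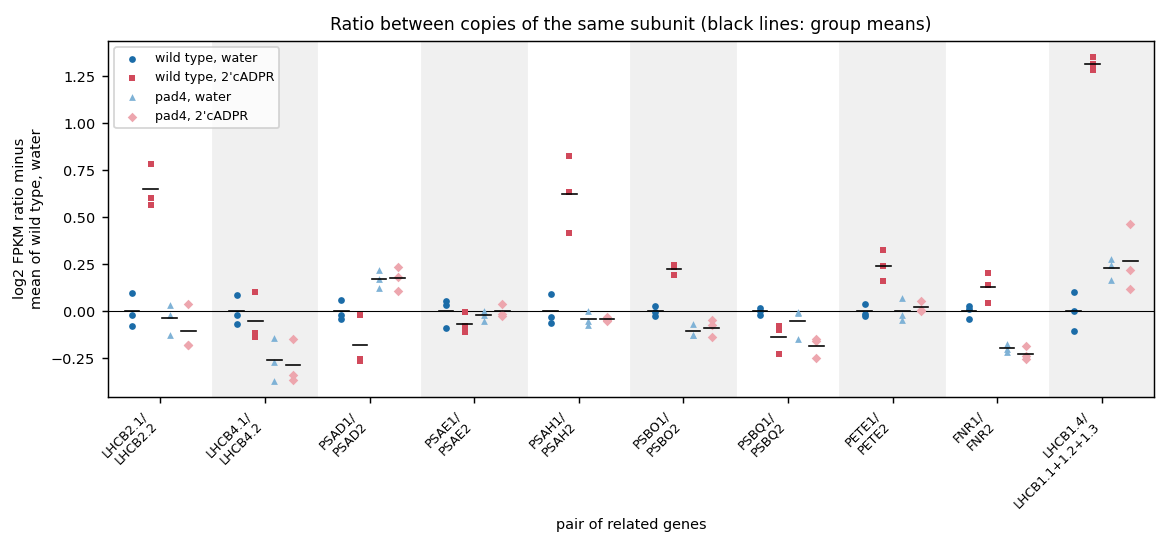
Points are within-library log2 FPKM ratios of related genes, less the mean of wild type after water, with group means as black lines. The wild type 2'cADPR libraries stand apart most for LHCB1.4 against the chromosome 1 copies, LHCB2.1 to LHCB2.2 and PSAH1 to PSAH2, at 1.32, 0.65 and 0.62.

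The upstream sequences of some genes that moved unlike their copies, and of some of those copies, are shown for comparison. They cover 250 bases before the annotated start, from RefSeq on TAIR10.1, read 5′ to 3′ on the gene's strand. Capitals mark matches on either strand to 5 motifs that are known from light and clock regulation of plant genes. The G-box was searched as CACGTG. The letters used for the I-box were GATAAG. A box of the CCAAT type was searched as CCAATC and a binding site of the clock protein CCA1 as AANAATCT. The evening element was given by AAAATATCT. LHCB1.3 lies downstream of chr1:10477635-10477884 (plus strand), LHCB1.4 of chr2:14524357-14524606 (plus strand), LHCB1.5 of chr2:14523569-14523818 (minus strand), PSAH1 of chr3:5469595-5469844 (minus strand) and PSAH2 of chr1:19454548-19454797 (plus strand).
LHCB1.3: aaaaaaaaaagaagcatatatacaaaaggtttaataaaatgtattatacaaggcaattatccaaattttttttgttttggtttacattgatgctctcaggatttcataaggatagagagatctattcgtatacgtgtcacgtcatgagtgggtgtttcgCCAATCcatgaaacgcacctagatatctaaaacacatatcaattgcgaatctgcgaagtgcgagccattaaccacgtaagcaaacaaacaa
LHCB1.4: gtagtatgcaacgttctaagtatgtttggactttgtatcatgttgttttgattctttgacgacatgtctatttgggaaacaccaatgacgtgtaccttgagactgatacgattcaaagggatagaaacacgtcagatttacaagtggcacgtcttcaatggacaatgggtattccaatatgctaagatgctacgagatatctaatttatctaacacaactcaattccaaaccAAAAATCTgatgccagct
LHCB1.5: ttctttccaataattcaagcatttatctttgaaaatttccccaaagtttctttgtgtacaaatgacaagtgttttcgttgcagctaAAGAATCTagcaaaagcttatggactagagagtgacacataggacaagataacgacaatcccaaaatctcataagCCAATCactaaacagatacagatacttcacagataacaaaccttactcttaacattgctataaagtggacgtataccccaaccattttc
PSAH1: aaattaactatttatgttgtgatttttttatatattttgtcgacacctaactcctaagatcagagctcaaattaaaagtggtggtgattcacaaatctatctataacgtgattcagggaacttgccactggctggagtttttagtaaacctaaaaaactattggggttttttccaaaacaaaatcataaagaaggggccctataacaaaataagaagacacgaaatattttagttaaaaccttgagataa
PSAH2: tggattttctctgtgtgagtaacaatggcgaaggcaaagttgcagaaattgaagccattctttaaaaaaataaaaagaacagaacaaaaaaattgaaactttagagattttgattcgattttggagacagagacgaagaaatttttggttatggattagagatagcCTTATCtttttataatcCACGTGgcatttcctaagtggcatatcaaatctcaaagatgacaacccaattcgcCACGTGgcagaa
LHCB1.3 and LHCB1.5 each hold CCAATC, starting at -91 and -89 from the gene start, and LHCB1.4 and LHCB1.5 hold the CCA1 letters at -18 and -164. PSAH2 holds a G-box at -67 and another at -12, and PSAH1 holds none of the 5 motifs. Of copies not shown, LHCB2.1 and LHCB2.2 both hold CCAATC, at -59 and -53, and LHCB2.1 also an I-box at -221. LHCB1.1 holds the CCA1 letters at -78, and LHCB1.2 holds none of the 5. Over the 46 genes, 17.4% held the G-box, 26.1% the I-box, 28.3% CCAATC, 21.7% the CCA1 letters and 2.17% the evening element. Over 27443 promoters of nuclear protein-coding genes the shares were 6.49%, 12.3%, 10.2%, 13.4% and 2.36%. No LHCII gene held the G-box within this window, and 4 of 8 held CCAATC. FD2, which fell about as much as PSAN, held none of the 5. These are matches of letters, not sites.

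Genes around the photosystems that were not among the 46 were mostly lower too in wild type. Of 12 further nuclear photosystem genes, 10 were called lower and 2 higher, with a median of -0.94: LHCA6 and LHCA5, which link photosystem I to the NDH complex, changed by -2.62 ± 0.09 and -1.40 ± 0.08, and FD3, a ferredoxin of non-green tissue, by 0.89 ± 0.11. The other gene called higher was ATPC2, at 0.67 ± 0.20. All 10 listed nuclear genes of the NDH complex, which carries cyclic electron flow, were called lower, with a median of -1.57. Among them PNSB3 changed by -2.27 ± 0.07 and PNSB2 by -1.94 ± 0.07.

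Of 19 genes for antenna targeting, assembly and repair, 17 were called lower and 1 higher, with a median of -0.84. PSB28 and PSB27, assembly factors of photosystem II, changed by -1.82 ± 0.07 and -1.86 ± 0.09, and CPFTSY, the receptor that brings antenna proteins to the membrane, was the gene called higher, at 0.68 ± 0.06. Of 11 tested genes of thylakoid regulation, 8 were called lower, among them OHP1 at -1.78 ± 0.09 and PGRL1A, of cyclic flow, at -1.46 ± 0.08. Of 12 regulators of photosynthesis genes, 9 were called lower and 1 higher, with the plastid sigma factors SIGD and SIGF at -1.34 ± 0.07 and -1.30 ± 0.07 and GUN1, of plastid-to-nucleus signalling, at 0.40 ± 0.06. No gene of these 5 lists was called in pad4 after 2'cADPR, where 1 of all tested genes was. Yet all 3 pad4 2'cADPR libraries lay below all 3 pad4 water libraries for many of them. This held for 7 of the 12 further photosystem genes, 8 of 10 NDH genes and 8 of 19 targeting, assembly and repair genes. It also held for 7 of 11 thylakoid genes and 9 of 12 regulators, against 7.39% of all tested genes. None was separated upward, and list medians were small, between -0.13 and -0.086. After water, 8 of the 10 NDH genes and 7 of the 12 regulators were called higher in pad4 than in wild type, where 11.7% of all tested genes were, or 2299 genes, and 4399 with reference gene scaling.

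The chloroplast-encoded partners gave another picture. Of 28 tested chloroplast genes for photosystems, cytochrome b6f and ATP synthase, none was called lower and 3 were called higher in wild type, with a median of 0.12. Over all tested genes 34.6% were called lower and 34.6% higher. Chloroplast genes took at most 0.0535% of counts in a library made with an mRNA kit, so their levels are low and may not reflect chloroplast transcripts as a whole. The higher calls included petG, at a mean of 1.33 counts a library after water and 11.3 after 2'cADPR, and psbK, at 1.37 ± 0.514 and 2.65 ± 1.13 CPM (SD, n = 3). In pad4 after 2'cADPR none of the 28 was called, with a median log2 change of -0.24 and 21 below zero. For 8 of them all 3 pad4 2'cADPR libraries lay below all 3 pad4 water libraries, against 7.39% of all tested genes. None was separated upward. The interaction was called negative for 4 and positive for none, with a median of -0.35. After water, 10 of the 28 were called higher in pad4 than in wild type, against 11.7% of all tested genes. The highest chloroplast share of all 12 was in pad4 water library 2. The part of that library in these calls and changes was not tested here.

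Markers of leaf tissues did not all move alike in wild type, where 34.6% of all tested genes were called lower and 34.6% higher. The median log2 change was -1.17 for mesophyll, -1.24 for epidermis, -0.22 for vascular and 0.16 for guard cell markers. All 3 mesophyll markers were called lower, among them CA1 at -1.87 ± 0.10 and RCA at -1.17 ± 0.09, and their summed level went from 19054 to 23106 CPM after water to 9678 to 10887 CPM after 2'cADPR. These mesophyll markers are photosynthesis genes themselves. Of 7 epidermis markers 6 were called lower, among them CER5 and CER3 of wax synthesis and export at -1.24 ± 0.10 and -1.64 ± 0.13, with a summed level of 1814 to 1850 CPM and then 683 to 890 CPM. Of 6 guard cell markers 2 were called lower, GORK and MYB60, and 2 higher, KAT1 and KAT2, and the summed level was 51.2 to 61.6 CPM and then 52.8 to 66.2 CPM. Of 7 vascular markers 4 were called lower, among them ATHB8 and SEOR1, with a summed level of 349 to 372 CPM and then 310 to 323 CPM. Of the flower, seed and root markers, AG was called lower, at 1.32 and 0.550 CPM. Of 7 reference genes 3 were called higher, among them AT4G34270 at 0.39 ± 0.07 and UBC21 at 0.28 ± 0.07, and none lower. The part of cell makeup in the changes of the 46 genes was not tested. In pad4 none of these markers was called.

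**Figure D5:**
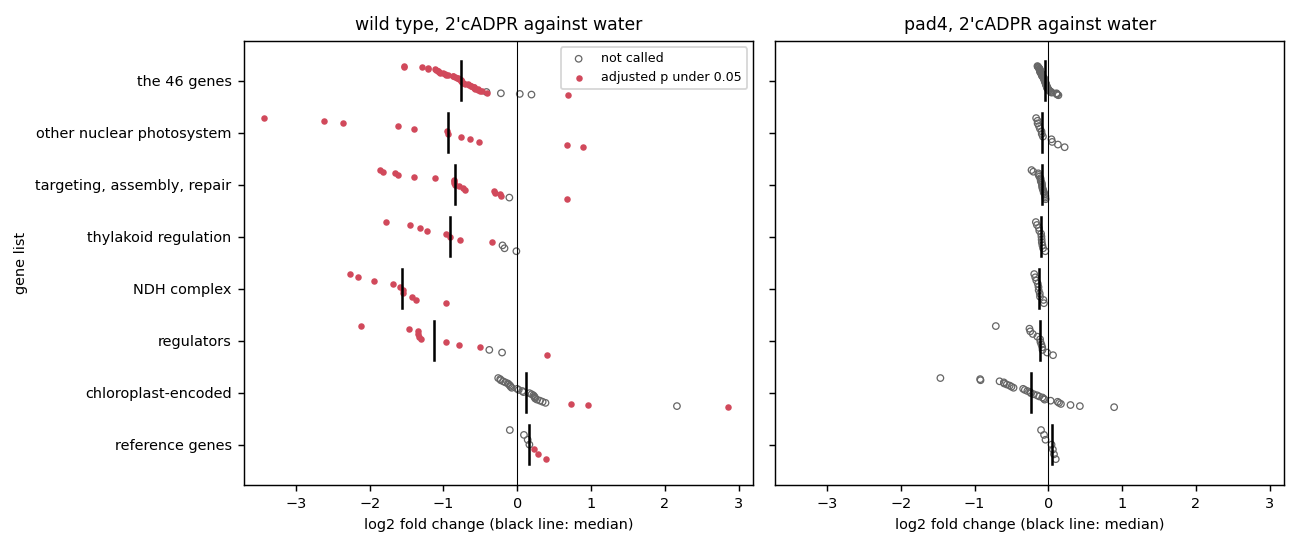
Points are log2 fold changes after 2'cADPR against water for each tested gene of 8 lists, in wild type and in pad4, filled where the adjusted p was under 0.05, with list medians as black lines. Wild type medians are -0.76 for the 46 genes, -1.57 for the NDH complex and 0.12 for chloroplast-encoded genes, and no gene of these lists is filled in pad4.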

How the data were processed

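Per the labels' protocols, TRIzol was used to extract total RNA from rosette leaves, and a SMARTER mRNA-seq kit gave the 12 libraries. The submitters' processing notes name fastp, HISAT, HTSeq and TAIR10; versions, strand setting and how reads matching several genes were handled was not given in the sources used here. Raw read counts per gene and FPKM were deposited by the authors. FPKM-implied lengths matched reference exon lengths, to within 0.5 bases, for 24224 of 24228 genes.

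Counts were scaled with TMM factors, filtered with filterByExpr (minimum count 10) to 19652 genes, and tested in R 4.3.3 with edgeR 4.0.16 (quasi-likelihood F-test, 1 mean per group, all 12 libraries) with Benjamini-Hochberg adjustment over all tested genes and a threshold of 0.05. SE is the log2 change divided by the square root of F. CPM was used within a gene and the authors' FPKM between genes. Copy ratios were compared with exact permutation tests (scipy 1.17.1). DESeq2 1.42.0, RLE factors, other filters, the groups compared alone, reference gene scaling, summed copies, a replicate block and leaving out each library were alternatives. The fit was tested on simulated data. Planned protein identities were replaced by coding sequence identities.

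Members and lists were chosen with earlier results of these data known. Values per library are given for the 2 genes of each complex with the largest absolute change in wild type, genes called against their complex and copies that differ by more than 1 in log2 change; of other lists, the 2 called genes with the smallest adjusted p in each direction. Other genes described with values were chosen after their values were seen.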

Additional observations from a re-analysis of the deposited data

Results flagged for a closer look

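The responses to 2'cADPR differed between pad4 and wild type by the interaction term of edgeR for most of the genes. It was called positive for 41 genes and negative for 1 of the 46, where positive means a higher log2 response in pad4. Among genes given per library, the interaction was 0.79 for LHCA1 and 0.76 for LHCA3 of the photosystem I antenna. In LHCII it was 1.34 for LHCB1.2, 0.56 for LHCB1.3 and -0.65 for LHCB1.4. For the minor antenna it was 1.26 for LHCB5 and 1.04 for LHCB6. In the photosystems it was 1.12 for PSAH2, 1.43 for PSAN, 1.06 for PSBP1 and 0.95 for PSBQ1. For carriers and ATP synthase it was 0.95 for PETE2, 1.43 for FD2, 0.73 for ATPC1 and 1.01 for ATPD.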

How the results depend on the processing

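No alternative turned the direction of a called change. In wild type, 2 genes were called higher instead of 1 with DESeq2 and with RLE factors, and 0 with gene copies summed, where LHCB1.4 is part of LHCB1; summing also left 0 lower in the interaction, 0 higher in pad4 after water and 0 lower in pad4 after 2'cADPR. With reference gene scaling, 5 genes were higher in pad4 after water and 0 lower after 2'cADPR, where LHCB1.4 was at -0.21. That scaling moved the median log2 change of all genes in wild type from -0.01 to -0.18, in the interaction to 0.17, in pad4 against wild type after water to 0.12 and after 2'cADPR to 0.30, and that of the 46 genes in wild type to -0.93. All-gene calls then split into 6817 higher and 4193 lower in the interaction instead of 5787 and 5539, 4399 and 2570 instead of 2299 and 3445 after water, and 9331 and 5459 instead of 7345 and 7232 after 2'cADPR. In pad4, DESeq2 called 26 of all genes and 0 of the 46. Leaving out each library in turn gave 41 to 43 genes lower and 1 to 2 higher in wild type, 0 called in pad4, 40 to 42 higher and 1 lower in the interaction, 0 to 1 higher and 0 to 4 lower in pad4 after water, and 41 to 42 higher and 1 lower after 2'cADPR. Replicate numbers gave no sign of pairing. Same-numbered libraries of different groups correlated at -0.171 to 0.0855 in their deviations from group means, and differently numbered ones at -0.16 to 0.168. Of 12 libraries, 2 correlated best with their own number. A weak pairing could be missed by this check. With the replicate block, 41 genes were lower and 1 higher in wild type, as without it. With 3 libraries a group, exact tests of copy ratios could not pass the threshold. How shared reads were handled limits single LHCB1 copies and, if any were left out, their sum. Low counts limit chloroplast genes.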
